A study of Rattus norvegicus with 6 samples.

Results

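The uncoupling proteins and the regulators of mitochondrial biogenesis were followed in the left ventricle of rats on 3 diets. They were the 9 genes Ucp2, Ucp3, Ppargc1a, Ppargc1b, Esrra, Esrrg, Nrf1, Gabpa and Tfam, chosen by name among the 14217 genes of the array that had a probe set of their own. Every probe set annotated to 1 of these symbols alone was taken, which gave 15 of the 31042 probe sets that are not array controls. Ppargc1a and Nrf1 had 3 probe sets each, Ucp3 and Esrrg had 2 each, and the other 5 genes had 1 each.

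Male Wistar rats were 6 weeks old when they were put on a Western diet supplemented with docosahexaenoic acid (DHA, a long-chain omega-3 fatty acid), a Western diet or a Control diet, and 18 weeks old after 12 weeks of feeding. They were fasted overnight before the tissue was taken, so the fasted state was common to all diets. Each diet had 10 rats, whose left ventricular RNA was combined into 2 pools of 5 rats, and each pool was hybridised to 1 array, which made 6 arrays. A pool averages its rats, so the spread between the 2 arrays of a diet is that of pools and not of single animals. The 3 comparisons share arrays, and their values are therefore given side by side and not set against each other. In whole ventricle a lower value can come from fewer cells of a type or from less RNA per cell, and these cannot be told apart.

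Uncoupling proteins are carriers of the inner mitochondrial membrane, and Ucp3 is known as a gene of skeletal muscle and heart that fatty acids induce through PPAR receptors. Mitochondrial biogenesis is directed from the nucleus: the coactivators PGC-1 alpha (Ppargc1a) and PGC-1 beta (Ppargc1b) bind the estrogen-related receptors (Esrra, Esrrg) and work with nuclear respiratory factor 1 (Nrf1) and the ETS factor GABP, of which Gabpa is the DNA-binding subunit. These factors switch on genes of the respiratory chain and of Tfam, the protein that packages mitochondrial DNA and starts its transcription. The heart depends on this programme for its supply of ATP.

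The 250 bases before the gene start are shown for 4 members. Ucp2 and Ucp3 are neighbouring genes, with no gene between them in the RefSeq annotation. Pearson's r between Ucp2 and the brighter Ucp3 probe set was 0.36 over the 6 arrays, and 0.59 without Control 1. For both genes the Western plus DHA arrays lay below the Western arrays. Esrra is shown because its values ran with those of Ucp2, and Tfam because it is a target of other members. The sequences are from RefSeq (rat build GRCr8), are written 5′ to 3′ on the strand of the gene, and have motif matches in capitals.
Ucp2, chr1:164251123-164251372, plus strand: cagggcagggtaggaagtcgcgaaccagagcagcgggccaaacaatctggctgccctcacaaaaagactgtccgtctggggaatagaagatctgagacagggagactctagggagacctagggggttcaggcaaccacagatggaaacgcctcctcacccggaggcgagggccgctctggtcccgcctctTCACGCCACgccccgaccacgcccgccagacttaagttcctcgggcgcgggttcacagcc
Ucp3, chr1:164227660-164227909, plus strand: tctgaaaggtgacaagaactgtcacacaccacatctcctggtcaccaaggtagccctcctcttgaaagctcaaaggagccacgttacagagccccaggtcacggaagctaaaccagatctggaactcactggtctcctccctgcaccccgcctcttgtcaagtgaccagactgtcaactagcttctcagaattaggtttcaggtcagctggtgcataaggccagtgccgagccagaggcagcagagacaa
Esrra, chr1:213543306-213543555, minus strand: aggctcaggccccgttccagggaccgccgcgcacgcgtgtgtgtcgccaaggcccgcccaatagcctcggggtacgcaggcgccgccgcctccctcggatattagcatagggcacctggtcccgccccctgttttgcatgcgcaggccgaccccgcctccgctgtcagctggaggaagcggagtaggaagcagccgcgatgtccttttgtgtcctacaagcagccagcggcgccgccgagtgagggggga
Tfam, chr20:17355123-17355372, plus strand: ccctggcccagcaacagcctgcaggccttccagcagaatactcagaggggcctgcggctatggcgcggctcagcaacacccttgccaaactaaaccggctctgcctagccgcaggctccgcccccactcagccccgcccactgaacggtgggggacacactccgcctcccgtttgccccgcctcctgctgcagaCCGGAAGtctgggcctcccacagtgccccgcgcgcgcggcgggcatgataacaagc

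Promoter windows were found for all 9 genes, 12 windows in all, and were searched on both strands for 8 motifs. The GABP core CCGGAAG lay in the windows of Tfam, starting 56 bases before the gene start, and of Gabpa itself, starting 85 bases before it on the other strand. It was present in 7.27% of the 33469 windows of all genes. The sterol regulatory element TCACNCCAC lay in the Ucp2 window, starting 60 bases before the gene start, and in 0.974% of all windows. No member window held the estrogen-related receptor core AAGGTCA (3.99% of all windows) or its longer form TCAAGGTCA (0.388%), which contains the core. The same was true of the nuclear respiratory factor 1 palindrome (3.75% with its middle base free and 0.762% with it fixed, the second being a case of the first). The PPAR direct repeat (0.0508%) and the E-box CACGTG (5.59%) were also without a match. A match here describes letters and not a bound site. C and G made up 62.8% of the Ucp2 window, 53.6% of the Ucp3 window, 68.8% of the Esrra window and 68.4% of the Tfam window, against a median of 51.2% over all windows. In the other windows the share was 50.4% for Ppargc1a, 58.0% for Gabpa, 75.2% for Nrf1 and 78.0% for Ppargc1b. The Esrrg windows ran between 42.4% and 80.0%.

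The values are log2 expression levels made by RMA, which corrects background, normalises between arrays and summarises the probes of a set. Array medians lay between 5.33 and 5.36. Arrays of different diets stood apart, and they touch several members. Control 1 was the highest of the 6 arrays for 29.0% of the 15521 brighter probe sets (mean not under 5.34, the median of all). It was the highest by 0.5 or more for 382 of them, against 0 to 52 for each other array. Western plus DHA 2 was the lowest of the 6 for 29.8% of them, and lowest by 0.5 or more for 146, against 4 to 44 for each other array. Control 1 was also lowest for 27.4%. The 3′ and 5′ GAPDH control probe sets differed by 0.68 in Control 1 and by 0.30 to 0.47 on the other 5 arrays. The same gap for beta-actin was 1.82 in Control 1 and 1.87 in Western plus DHA 1. For hexokinase it was 2.28 in Control 1 and up to 2.27 elsewhere, so these did not set Control 1 apart. Other control pairs did. The gap in Control 1 against the other arrays was 0.93 against 0.40 to 0.44 for PheX and 1.69 against 1.25 to 1.36 for DapX. For ThrX it was 1.80 against 1.36 to 1.57. The LysX pair (2.54 against 2.46 to 2.60) and the BioB pair (0.33 against 0.28 to 0.37) did not set Control 1 apart. The part of single arrays in the members' differences was not tested. Differences that leaving out 1 array moved most are given beside the gene, and sign changes are given in the closing section.

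No member passed the test in any comparison. The test was limma's moderated test over all 31042 probe sets, with Benjamini-Hochberg adjusted p under 0.05. It called 0 of the 15 member probe sets for Western plus DHA against Control, where 0.00322% of all probe sets (1 of 31042) were called. It also called 0 of 15 for Western plus DHA against Western and for Western against Control, where 0% of all probe sets were called in each. The F test over the 3 diets called 0 of 15 members and 0.00322% of all probe sets. At an unadjusted p under 0.05, the numbers of member probe sets were 3 for Western plus DHA against Control (8.87% of all probe sets), 2 for Western plus DHA against Western (4.06%) and 0 for Western against Control (2.83%). The 5 differences so counted were all negative. Ppargc1a (1370089_at) is among them in both comparisons, through the same Western plus DHA arrays, so the 5 are not separate observations. Of all probe sets at this p, 1456 were lower and 1296 higher for Western plus DHA against Control. Against Western, 642 were lower and 619 higher.

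Between Western plus DHA and Western, most member probe sets lay lower in Western plus DHA. Both Western plus DHA arrays were below both Western arrays for 9 of 15 member probe sets, against 16% of all probe sets, and above them for 1, against 19.5%. Counted by 1 probe set a gene, 5 of the 9 genes (Ucp2, Ucp3, Ppargc1a, Ppargc1b and Esrra) were lower in this sense and 1 (Tfam) was higher, against 15.9% and 20.9% of all genes. The 9 probe sets come from 6 genes, 3 of them from Ppargc1a and 2 from Ucp3, and are not independent. Against Control, Western plus DHA was lower without overlap for 4 of 15 (15.1% of all) and higher for 0 (22%), and Western was lower for 2 (13.5%) and higher for 4 (17.5%). With 1 probe set a gene, the median log2 difference over the 9 genes was -0.09 for Western plus DHA against Control and -0.07 for Western plus DHA against Western, where 4 genes were above 0 and 5 below. It was -0.06 for Western against Control. Over the 15 probe sets the median was -0.09 for Western plus DHA against Control, -0.16 for Western plus DHA against Western and 0.02 for Western against Control. Over all probe sets the corresponding medians were 0.03, 0.01 and 0.01.

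**Figure D1:**
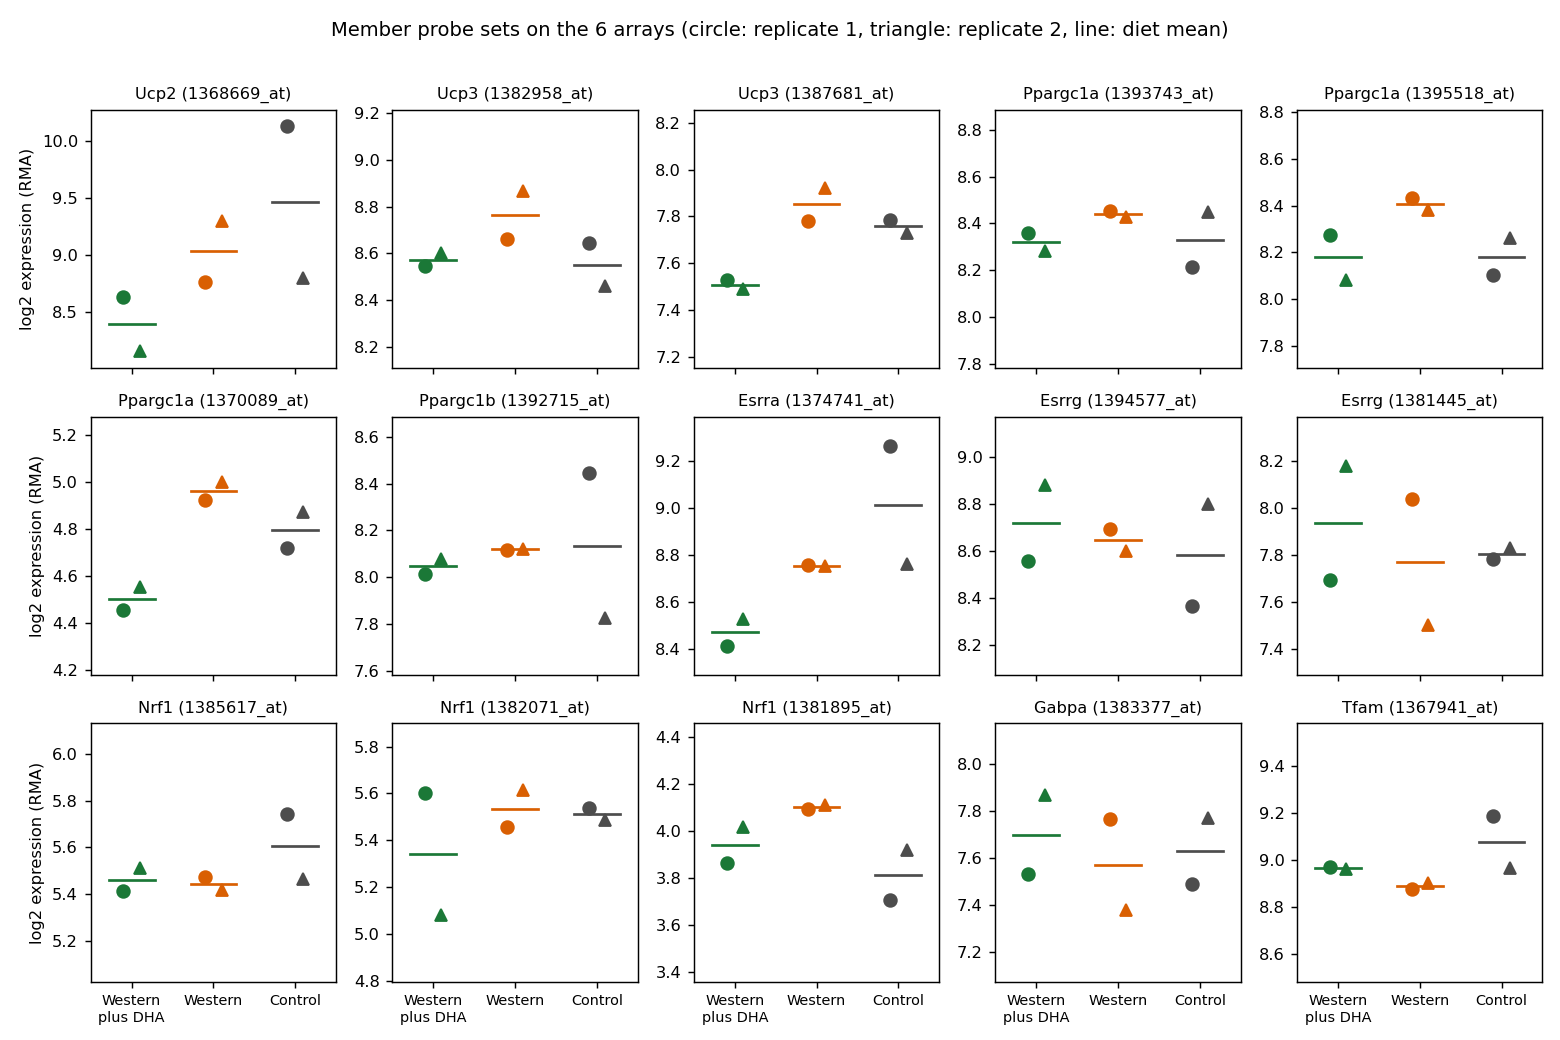
Log2 expression (vertical axes, each panel with its own range) of the 15 member probe sets in Western plus DHA, Western and Control ventricles, with a circle for replicate 1, a triangle for replicate 2 and a line at the diet mean. Ucp2 and Esrra are highest in Control 1, and the Ppargc1a and Ucp3 probe sets lie lower in Western plus DHA than in Western.

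Ucp2, the uncoupling protein found in many tissues and in immune cells, had the widest spread of the members. Its log2 level was 8.63 and 8.16 in the Western plus DHA arrays, 8.76 and 9.30 in the Western arrays, and 10.13 and 8.80 in the Control arrays. Both Western plus DHA arrays were below all 4 others, while Western and Control overlapped and the Control arrays were far apart. The log2 difference of Western plus DHA from Control was -1.07 ± 0.39 (SE, 95% interval -1.96 to -0.18), which is 2.10-fold higher in Control, with an adjusted p of 0.562. Without Control 1 this difference was -0.41 and without Control 2 it was -1.73, so the choice of Control array moved it by more than its standard error. Western plus DHA 2 was the lowest array. Western plus DHA differed from Western by -0.64 ± 0.39 (adjusted p 0.983), which was -0.91 without Western 1 and -0.37 without Western 2, and Western from Control by -0.43 ± 0.39 (adjusted p 1). The difference of Western from Control changed sign without Control 1, to 0.23.

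Ucp3, the uncoupling protein of muscle, was read by a pair of probe sets. The first (1382958_at) had levels of 8.55 and 8.60 in Western plus DHA, 8.66 and 8.87 in Western, and 8.64 and 8.46 in Control. The second (1387681_at) had 7.53 and 7.49 in Western plus DHA, 7.78 and 7.92 in Western, and 7.79 and 7.73 in Control. On both, Western plus DHA lay below Western without overlap, and on the second also below Control. The difference of Western plus DHA from Western was -0.19 ± 0.14 on the first and -0.34 ± 0.12 on the second (95% interval -0.62 to -0.06, unadjusted p 0.0231), with an adjusted p of 0.983 for each. Against Control the probe sets took opposite signs, 0.02 ± 0.14 and -0.25 ± 0.12 (adjusted p 0.970 and 0.579). Western was above Control by 0.21 ± 0.14 and 0.09 ± 0.12, with an adjusted p of 1 for both. Western 2 was the highest array on both sets. Without it, the first set differed by -0.09 between Western plus DHA and Western, and the second by 0.03 between Western and Control.

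Ppargc1a, the inducible coactivator, gave the lowest unadjusted p of any member, on a dim probe set. That set (1370089_at) had 4.46 and 4.55 in Western plus DHA, 4.92 and 5.00 in Western, and 4.72 and 4.87 in Control. The 3 diets did not overlap on it, with Western plus DHA lowest and Western highest. Western plus DHA differed from Western by -0.46 ± 0.13 (95% interval -0.75 to -0.17, unadjusted p 0.00635, adjusted p 0.983) and from Control by -0.29 ± 0.13 (adjusted p 0.563). Its mean of 4.75 was under 5.34.

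On the brighter Ppargc1a sets, Western plus DHA differed less from the other diets. On 1393743_at the levels were 8.36 and 8.28 in Western plus DHA, 8.45 and 8.43 in Western, and 8.22 and 8.45 in Control. On 1395518_at they were 8.27 and 8.08 in Western plus DHA, 8.43 and 8.38 in Western, and 8.10 and 8.26 in Control. Western plus DHA was below Western on both without overlap, and it overlapped Control on both. The differences from Western were -0.12 ± 0.13 and -0.23 ± 0.13 (adjusted p 0.983 for each), and those from Control were -0.01 ± 0.13 and -0.00 ± 0.13 (adjusted p 0.986 and 0.996). Western was above Control on all 3 sets, by 0.11 to 0.22 (adjusted p 1 for each), with no overlap on 1370089_at and 1395518_at. Without Control 1 these differences were 0.09 on 1370089_at, 0.15 on 1395518_at and -0.01 on 1393743_at. On 1395518_at, Western plus DHA differed from Western by -0.13 without Western plus DHA 2.

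Ppargc1b, the second PGC-1 coactivator, differed little between diet means. Its levels were 8.02 and 8.08 in Western plus DHA, 8.12 and 8.12 in Western, and 8.44 and 7.83 in Control. The Control arrays were the highest and the lowest of the 6 and enclosed the other diets, while Western plus DHA was below Western without overlap. Western plus DHA differed from Western by -0.07 ± 0.19 (adjusted p 0.991; -0.04 without Western plus DHA 1) and from Control by -0.09 ± 0.19 (adjusted p 0.902). The difference from Control was -0.40 without Control 2 and 0.22 without Control 1, a change of sign.

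Esrra, the estrogen-related receptor alpha that carries much of the PGC-1 response, ordered the diets as Ucp2 did. Its levels were 8.41 and 8.53 in Western plus DHA, 8.76 and 8.75 in Western, and 9.27 and 8.76 in Control. Western plus DHA was the lowest diet without overlap, whereas Western lay below Control 2 by less than the last digit shown. The difference of Western plus DHA from Control was -0.54 ± 0.17 (95% interval -0.94 to -0.15), which is 1.46-fold higher in Control, with an unadjusted p of 0.0130 and an adjusted p of 0.562. It was -0.29 without Control 1 and -0.80 without Control 2. Western plus DHA differed from Western by -0.29 ± 0.17 (adjusted p 0.983) and Western from Control by -0.26 ± 0.17 (adjusted p 1). Without Control 1 the difference of Western from Control was -0.01.

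Esrrg, the related receptor gamma found in heart, overlapped between diets in every comparison. On 1394577_at the levels were 8.56 and 8.88 in Western plus DHA, 8.69 and 8.60 in Western, and 8.36 and 8.80 in Control. On 1381445_at they were 7.69 and 8.18 in Western plus DHA, 8.04 and 7.50 in Western, and 7.78 and 7.83 in Control. The 2 Western plus DHA arrays were farther apart than any diet means on either set. Western plus DHA differed from Control by 0.14 ± 0.18 and 0.13 ± 0.21, and from Western by 0.07 ± 0.18 and 0.17 ± 0.21, with adjusted p between 0.818 and 0.991.

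Nrf1, which binds promoters of respiratory genes, had 3 probe sets that disagreed. On 1385617_at the levels were 5.41 and 5.51 in Western plus DHA, 5.47 and 5.42 in Western, and 5.74 and 5.47 in Control, and the diets overlapped. On 1382071_at they were 5.60 and 5.08 in Western plus DHA, 5.46 and 5.61 in Western, and 5.54 and 5.49 in Control, where Western plus DHA held both a high and the lowest value. On 1381895_at, a dim set with a mean of 3.95, they were 3.86 and 4.02 in Western plus DHA, 4.09 and 4.11 in Western, and 3.71 and 3.92 in Control. On this set Western was above both other diets, by 0.29 ± 0.13 over Control (unadjusted p 0.0600, adjusted p 1), while Western plus DHA was 0.16 ± 0.13 below Western (adjusted p 0.983). The brightest set, 1385617_at, gave -0.16 ± 0.14 for Western against Control and 0.02 ± 0.14 for Western plus DHA against Western. Control 1 held the highest value of 1385617_at, and without it Western differed from Control by -0.02 there. Without Control 1 the difference on 1381895_at was 0.18. The sign of a diet difference in Nrf1 thus depended on the probe set read.

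Gabpa, the DNA-binding subunit of GABP, had levels of 7.53 and 7.87 in Western plus DHA, 7.77 and 7.38 in Western, and 7.49 and 7.77 in Control. The diets overlapped in every comparison. Western plus DHA differed from Control by 0.07 ± 0.19 and from Western by 0.13 ± 0.19, with adjusted p of 0.919 and 0.985. The 95% interval for Western plus DHA against Western, -0.30 to 0.55, covers changes in either direction.

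Tfam, which packages mitochondrial DNA, had levels of 8.97 and 8.96 in Western plus DHA, 8.87 and 8.90 in Western, and 9.19 and 8.97 in Control. Western plus DHA was above Western without overlap, and Western was below Control without overlap. The differences were 0.08 ± 0.13 for Western plus DHA against Western (adjusted p 0.985), -0.11 ± 0.13 for Western plus DHA against Control (adjusted p 0.794) and -0.19 ± 0.13 for Western against Control (adjusted p 1). Without Control 1 the difference of Western plus DHA from Control was -0.00 and that of Western from Control was -0.08.

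**Figure D2:**
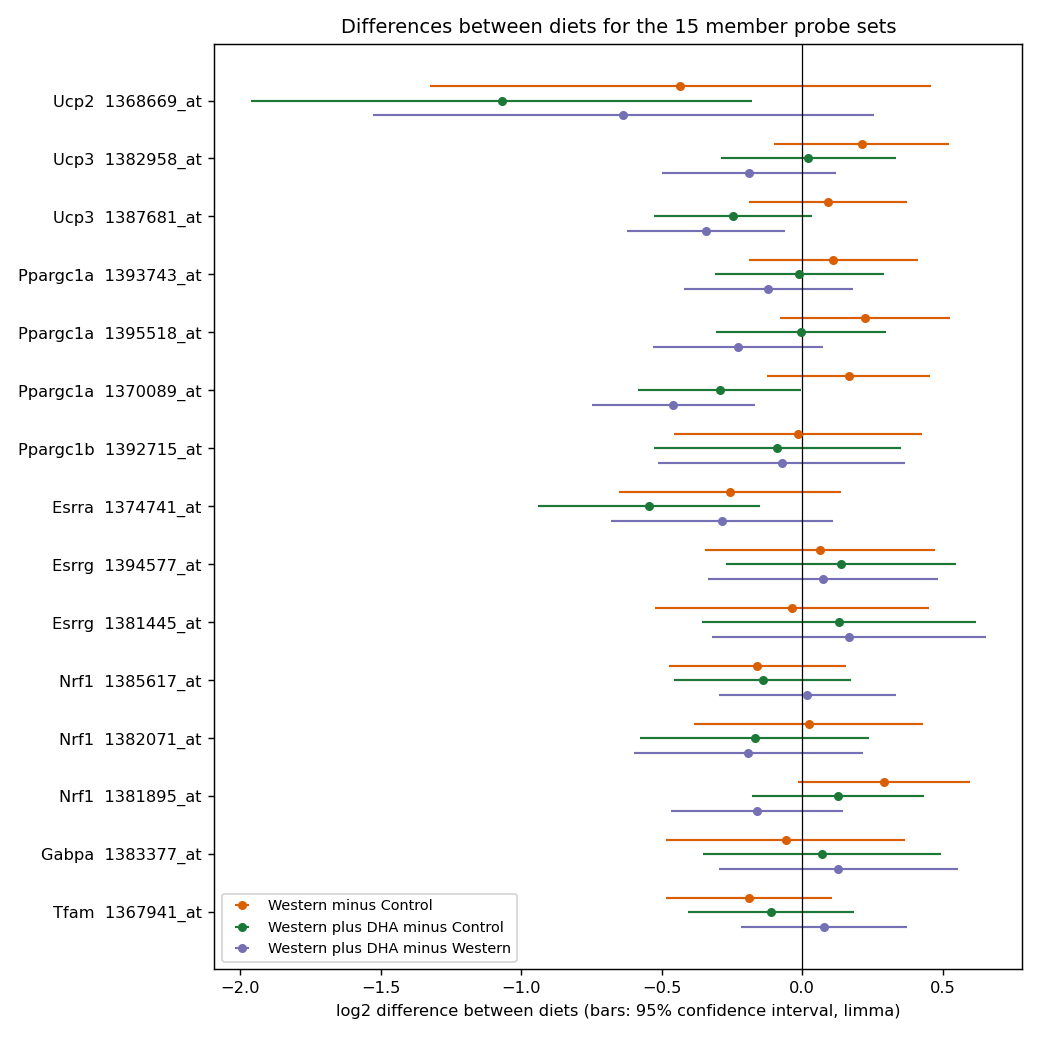
Log2 differences between diets (horizontal axis) for the 15 member probe sets, with points for the limma estimate and bars for its unadjusted 95% confidence interval, in orange for Western minus Control, green for Western plus DHA minus Control and purple for Western plus DHA minus Western. Intervals that leave out 0 are those of Ucp2, Esrra and Ppargc1a (1370089_at) for Western plus DHA minus Control, and of Ucp3 (1387681_at) and Ppargc1a (1370089_at) for Western plus DHA minus Western.

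**Figure D3:**
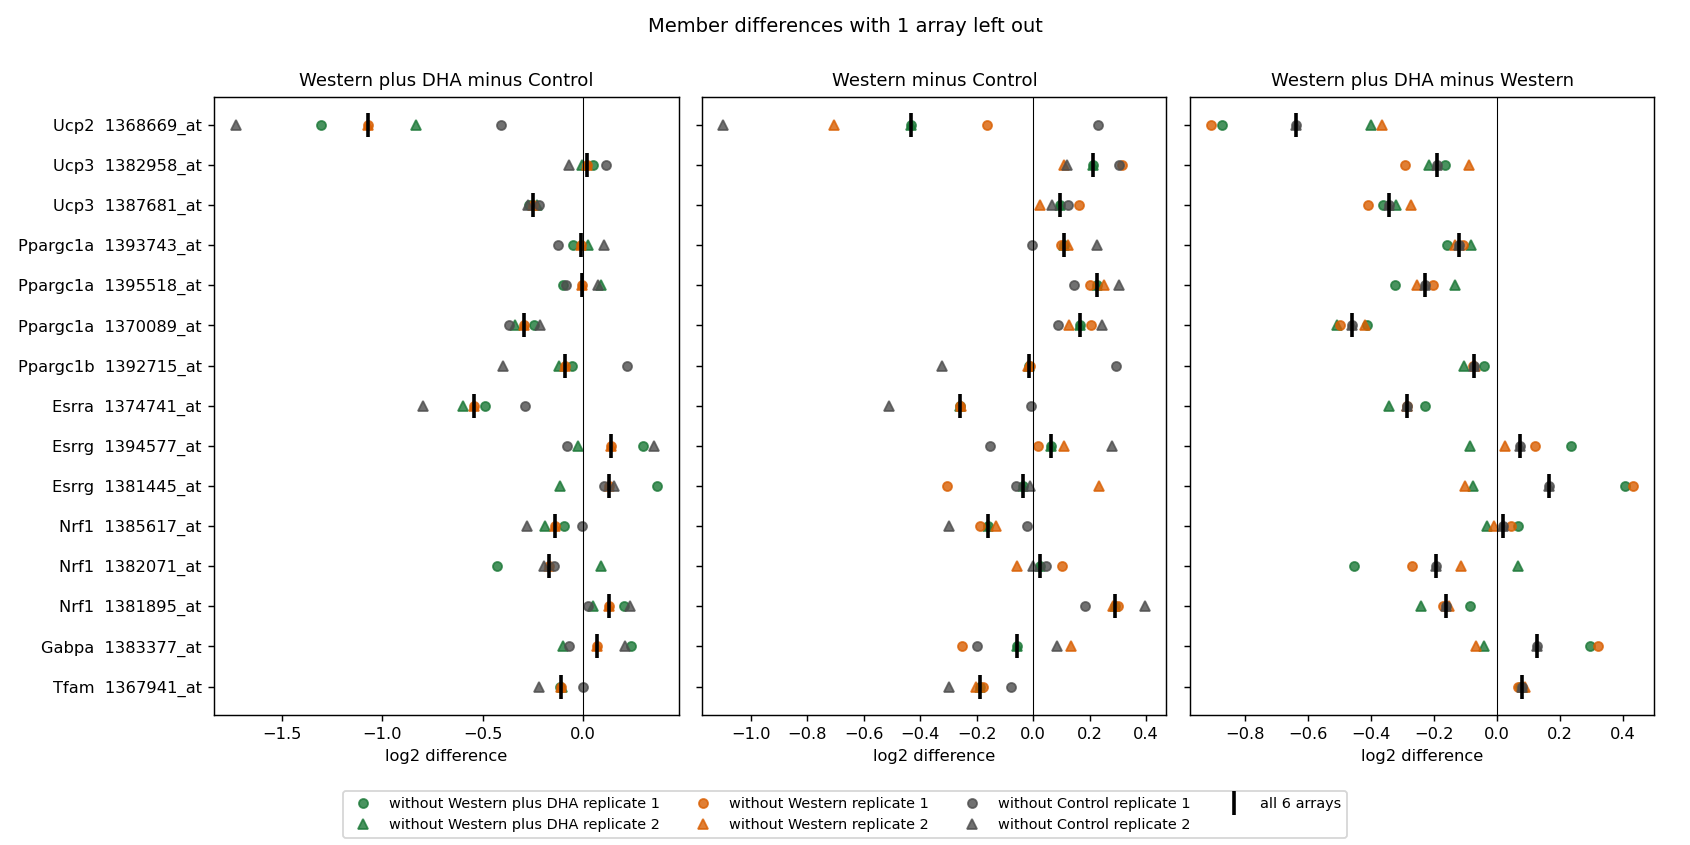
Log2 differences (horizontal axes) of the 15 member probe sets with all 6 arrays (black bar) and with 1 array left out (coloured points, circle for replicate 1 and triangle for replicate 2). For Ucp2 in Western plus DHA minus Control the points run between -1.73 without Control 2 and -0.41 without Control 1, and for Esrra between -0.80 and -0.29 on leaving out the same arrays.

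Pairs of members were compared across the 6 arrays. Of the 36 pairs of genes, 0 had a Pearson correlation with an exact permutation p under 0.05 after adjustment over the 36 pairs (lowest 0.35), and 4 had an unadjusted p under 0.05. These 4 were picked out after the values were seen, and the arrays of a pair share diet and scaling. Ucp2 and Esrra ran together (r = 0.897, exact permutation p 0.0319, adjusted 0.35), with a Spearman rho of 0.771 (exact permutation p 0.103). Without Western plus DHA 2 and Control 1, the arrays farthest from the median of Ucp2, r was 0.54, and it was 0.62 without Control 1 alone. Ucp2 ran against Esrrg (r = -0.862, rho -0.6, exact permutation p 0.0292 and 0.242), which was -0.16 without those same arrays and so rested on them. Ppargc1a ran against Tfam (r = -0.834, rho -0.714, exact permutation p 0.0319 and 0.136), with -0.58 without them. Esrrg and Gabpa ran together (r = 0.807, rho 0.829, exact permutation p 0.0486 and 0.0583), and r was 0.81 without them.

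**Figure D4:**
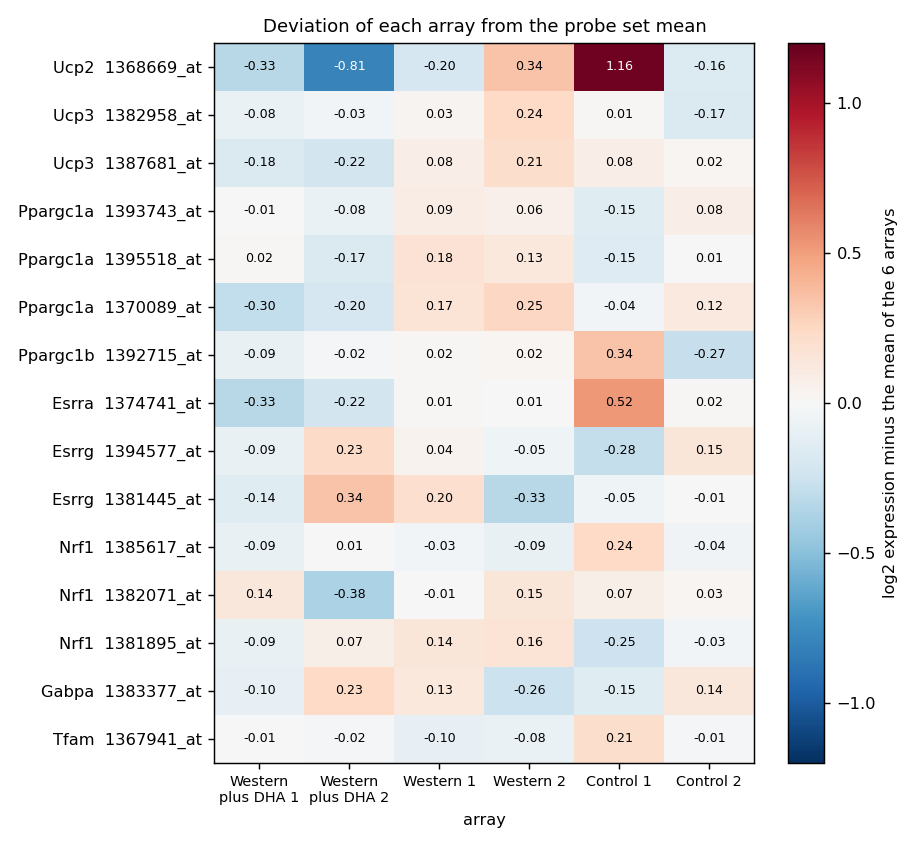
Deviation of each array (columns) from the mean of the 6 arrays for the 15 member probe sets (rows), in log2 units and printed in each cell, red above and blue below the mean. Control 1 is 1.16 above the mean for Ucp2 and 0.52 above it for Esrra, and Western plus DHA 2 is 0.81 below it for Ucp2.

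For the 3 members whose brightest set varied most over the arrays, the genes with the most similar pattern were sought among 2421 genes of that brighter range that varied with an SD of at least 0.2. The likeness is Pearson's r over 6 arrays, given as a description. Ucp2 was closest to Tomm40, a channel of the mitochondrial outer membrane that imports proteins, to Rbck1, a subunit of a ubiquitin ligase complex, and to Mbd3, a chromatin protein, with r of 0.999, 0.998 and 0.998. All 3 had their highest level in Control 1 and their lowest in Western plus DHA 2, as Ucp2 had. Esrra was closest to Hspb7, a small heat shock protein of heart muscle, to Tnrc6a, a protein of microRNA silencing, and to Pa2g4 (r of 0.994 each). Ppargc1b was closest to Eefsec, the elongation factor for selenocysteine (0.982), to Txn2, the mitochondrial thioredoxin (0.982), and to Ulk1, a kinase that starts autophagy (0.980). In these 9 genes too, Control 1 was the highest array. Such shared extremes follow largely from choosing genes by likeness to members that were highest in Control 1, and are no separate result.

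The wider programme around the members was described with 7 lists of genes, 1 probe set a gene. No gene of any list passed the test in any comparison, beside 0% of the 14217 genes in each. For Western plus DHA against Control, genes of the respiratory chain and citric cycle that estrogen-related receptors and nuclear respiratory factors drive were lower without overlap in 13 of 28 and higher in 2, against 14.3% and 22.3% of all genes. Their median difference was small, at -0.04, where that of all genes was 0.03. Ogdh, a subunit of the oxoglutarate dehydrogenase of the citric cycle, stood lowest in p among them, at -0.48 ± 0.17 (adjusted p 0.562), and was -0.27 without Control 1. Leaving out an array of either diet, 16 to 18 of the 28 were lower without overlap and 2 to 8 higher, against 25.2% to 34.7% and 32.8% to 43.6% of all genes. Against Western, 11 of the 28 were lower without overlap and 3 higher, against 15.9% and 20.9% of all genes, with a median of -0.04.

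PPAR alpha targets of fatty acid use, the genes through which the heart takes up and burns fat, had more genes higher than lower. In Western plus DHA against Control 10 of 22 were higher without overlap and 1 lower, against 22.3% and 14.3% of all genes, with a median of 0.07. Leaving out an array of either diet, 11 to 14 were higher and 1 to 7 lower, against 32.8% to 43.6% and 25.2% to 34.7% of all genes. The counts came nearest to all genes without Control 2, with 11 of 22 higher and 7 lower, against 43.6% and 31.5%. In Western plus DHA against Western, 6 of 22 were higher and 3 lower, near the 20.9% and 15.9% of all genes. In Western against Control, 7 of 22 were higher and 2 lower, against 16.6% and 11.9% of all genes. More genes higher than lower was thus also seen on the Western diet without DHA. Acot1, a thioesterase that frees fatty acids from coenzyme A, had log2 levels of 6.52 and 6.72 in Western plus DHA, 5.83 and 5.82 in Western, and 5.24 and 5.03 in Control. The 3 diets did not overlap on Acot1 and stood in that order. Its difference of Western plus DHA from Control was 1.48 ± 0.14 with an adjusted p of 0.0562, and that from Western 0.79 ± 0.14 with an adjusted p of 0.983. Western differed from Control by 0.69 ± 0.14 on Acot1. Angptl4, a secreted inhibitor of lipoprotein lipase, was 0.59 ± 0.18 above Control in Western plus DHA (adjusted p 0.562), and 0.35 above it without Control 1. Acot1 differed by 1.59 without Control 1.

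Partners and regulators of the members gave small medians for Western plus DHA against Control, where the counts below stand beside 14.3% of all genes lower and 22.3% higher without overlap. Some of these counts were near that background and others were not. With so few genes in each list, nothing is read from them. Among 24 partner transcription factors, 7 were lower without overlap in Western plus DHA than in Control and 1 higher (median -0.11), with -0.53 ± 0.19 for the retinoid receptor Rxrb and -0.52 ± 0.20 for Ppard (adjusted p 0.562 each), although a second Ppard set gave -0.07. Without Control 1 these 2 genes differed by -0.39 and -0.19. Among 29 regulators and partners of PGC-1, 4 were lower and 4 higher (median -0.04). Fnip1, a partner of folliculin in AMPK signalling, was 0.37 ± 0.14 above Control on 1 set and -0.07 on the other. Of 17 genes of mitochondrial DNA upkeep and transcription, 3 were lower and 5 higher (median 0.12). The protease Lonp1 was -0.49 ± 0.18 from Control on 1 set (-0.29 without Control 1) and -0.08 on the other. The median of this list was 0.01 without Control 1. Of 17 genes of mitochondrial dynamics and mitophagy, 4 were lower and 2 higher (median -0.03), with the kinase Pink1 at -0.56 ± 0.25 and the fission factor Fis1 at -0.55 ± 0.24 (adjusted p 0.565 each), both overlapping between the diets. Without Control 1 Pink1 differed by -0.26 and Fis1 by -0.24. Of 15 uncoupling protein homologues and other carriers, 4 were lower and 1 higher (median -0.06), with the coenzyme A carrier Slc25a42 at -0.50 ± 0.19 (adjusted p 0.562; -0.22 without Control 1).

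Against Western, the other 5 lists had medians of -0.05 (partner factors), -0.03 (PGC-1 regulators), 0.10 (mitochondrial DNA), 0.00 (dynamics) and -0.01 (carriers) in Western plus DHA, and the PPAR alpha targets 0.04. For Western against Control, the 7 medians lay between -0.06 (carriers) and 0.02 (PPAR alpha targets). In that comparison Tfb2m, the transcription factor that works with Tfam on mitochondrial DNA, was lower without overlap at -0.30 ± 0.13 (adjusted p 1).

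**Figure D5:**
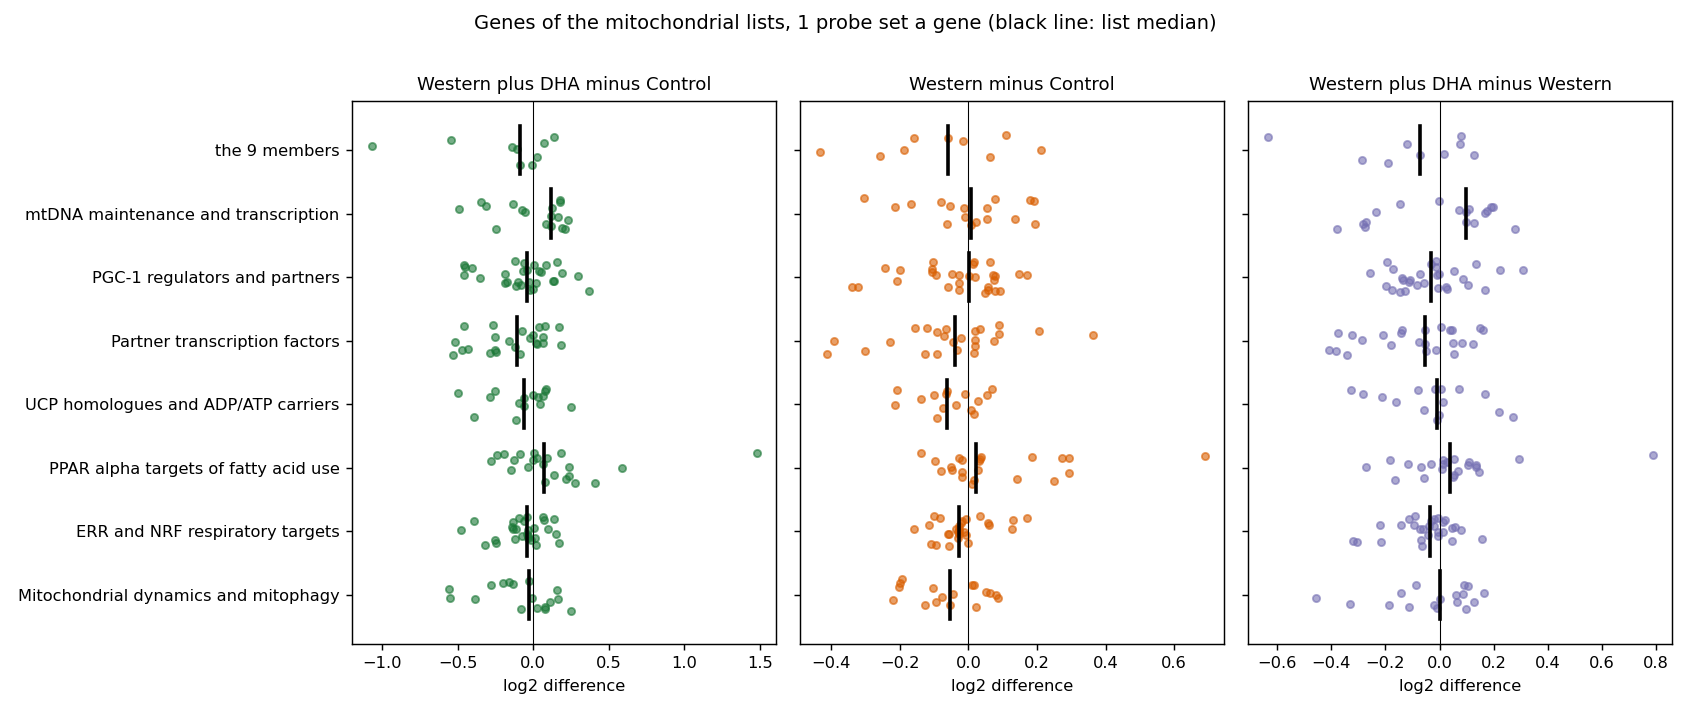
Log2 differences between diets (horizontal axes) for the 9 members and for the genes of 7 lists, with a point for each gene and a black line at the list median. Medians lie within 0.12 of 0 in every panel, and the point at 1.48 in the Western plus DHA minus Control panel is Acot1.

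Markers of the cells in the tissue were read beside these values. Of all 14217 genes, 6640 were below 0 and 7577 above 0 for Western plus DHA against Western. Against Control, 6150 were below 0 and 8067 above 0. Of 13 cardiomyocyte markers, 12 were below 0 for Western plus DHA against Western (median -0.06). Without overlap, 5 of the 13 were lower and 0 higher, against 15.9% and 20.9% of all genes. For Western plus DHA against Control, 11 were below 0 (median -0.08). Without overlap, 7 were lower and 0 higher there, against 14.3% and 22.3% of all genes. The summed linear level of these markers was 129794 to 131265 in Western plus DHA, 135155 to 135619 in Western, and 135146 to 139640 in Control. All 13 had a mean level not under 5.34. Of 17 macrophage and monocyte markers, cells in which Ucp2 is known to be active, 16 were above 0 for Western plus DHA against Western (median 0.18). Without overlap, 3 of the 17 were higher and 0 lower, against 20.9% and 15.9% of all genes, so the higher count is no excess. The mean log2 level of these markers was 7.47 and 6.89 in the Western plus DHA arrays, 7.06 and 6.96 in the Western arrays, and 7.16 and 6.90 in the Control arrays. Western plus DHA 1 stood above both Western arrays, and Western plus DHA 2, the lowest array for Ucp2, stood below them. Their summed level was 3932 to 5827 in Western plus DHA, 3888 to 4113 in Western, and 3920 to 4452 in Control. Of 9 smooth muscle and pericyte markers, 7 were below 0 for Western plus DHA against Western (median -0.23) and 7 against Control (median -0.27). Without overlap, 2 of the 9 were lower and 1 higher against Western, beside 15.9% and 20.9% of all genes. Against Control 5 were lower and 0 higher, beside 14.3% and 22.3%. Their mean log2 level was 7.59 and 7.47 in the Western plus DHA arrays and 7.57 and 7.76 in the Western arrays. Of 10 endothelial markers, 8 were below 0 for Western plus DHA against Western (median -0.15). Without overlap, 2 of the 10 were lower and 0 higher, against 15.9% and 20.9% of all genes, so the lower count is near that share. The mean log2 level of the endothelial markers was 8.96 and 8.57 in the Western plus DHA arrays and 8.89 and 8.97 in the Western arrays. Epicardial and mesothelial markers were above 0 in 8 of 8 for Western plus DHA against Control (median 0.42), although 6 of the 8 were below the median level, and erythroid markers in 4 of 5 (median 0.51). Without overlap against Control, fibroblast markers were higher in 4 of 10 and lower in 0, and neutrophil markers in 4 and 0 of 7. The counts were 5 and 1 of 9 for lymphocyte markers and 4 and 1 of 9 for white adipocyte markers. Against Western, the higher and lower counts of these lists were 2 and 0, 1 and 3, 3 and 2, and 0 and 3. Of the neutrophil markers 6 were below the median level, and of the lymphocyte markers 7. Brown adipocyte and skeletal muscle markers were also read. The part of these cells in the members' values was not tested.

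In the authors' deposited table Ucp2 had a log2 change of -1.07 for DHA against Control with a p of 0.0241 and a Benjamini-Hochberg value of 0.560. The authors' deposited table gave Esrra -0.54 with a p of 0.0130 and the same adjusted value. Of the 66 probe sets that the authors listed as differing, 0 were members.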

How the data were processed

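Left ventricular RNA of Wistar rats on 3 diets was measured on 6 Affymetrix arrays, 2 a diet and each a pool of 5 rats. Per the submitters' processing notes the log2 values were made with RMA in R 2.11.0, and these deposited log2 values were used as they stand. The authors also deposited log2 changes with p-values and Benjamini-Hochberg values, whose test the sources used here do not name. Symbols came from the platform annotation: 20826 probe sets had 1 symbol, 436 several and 9780 none.

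The 57 control probe sets were left out. limma 3.58.1 (R 4.3.3; lmFit, contrasts, eBayes) was fitted to all 6 arrays and 31042 probe sets with 1 mean a diet, 3 residual and 5.28 prior degrees of freedom, and Benjamini-Hochberg adjustment over all probe sets with a threshold of 0.05. An exact permutation test of 2 arrays against 2 cannot go below p = 0.333. A gene with several probe sets was represented by the brightest. "Without overlap" means that both arrays of 1 diet lay beyond both of the other. Genes outside the members were named by smallest p in their list (2 a comparison, of which a selection is printed) or by likeness of pattern. All tests are two-sided, and the number of arrays limits the precision. Correlations used all 720 orders of the arrays.

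The members and lists were chosen with earlier results of these data known, and the promoter motifs were chosen after seeing the values. Alternatives changed the normalisation, prior, weights, filter, probe sets, arrays, threshold and replicate block. The fit was tested on simulated data whose spreads were drawn from the fitted prior. This replaced a first version, with the moderated spreads, which made more false calls than the nominal share. The share of simulated differences that had to be recovered was lowered as well. The criteria that the simulation passed were thus set after a first result was seen. It does not bear on the p-values printed.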

Additional observations from a re-analysis of the deposited data

How the results depend on the processing

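No member probe set was called under any alternative. The lowest adjusted p of a member was 0.0947, for Ucp2 in Western plus DHA against Control without Control 2, where all alternatives for that result ran between 0.0947 and 0.999. The 45 member differences were recomputed under 19 settings, giving 813 values, of which 41 in 21 differences took the other sign, 30 of them on leaving out 1 array. The cause was not tested, other than that fewer arrays were fitted in those 30. The log2 differences with each array left out in turn ranged, for Western plus DHA against Control, over Esrrg (1381445_at) -0.11 to 0.37, Esrrg (1394577_at) -0.079 to 0.35, Gabpa (1383377_at) -0.098 to 0.24, Nrf1 (1382071_at) -0.43 to 0.091, Ppargc1a (1393743_at) -0.13 to 0.11, Ppargc1a (1395518_at) -0.098 to 0.091, Ppargc1b (1392715_at) -0.40 to 0.22 and Ucp3 (1382958_at) -0.070 to 0.11. For Western plus DHA against Western they ranged over Esrrg (1381445_at) -0.10 to 0.43, Esrrg (1394577_at) -0.086 to 0.23, Gabpa (1383377_at) -0.065 to 0.32, Nrf1 (1382071_at) -0.45 to 0.068 and Nrf1 (1385617_at) -0.031 to 0.067. For Western against Control they ranged over Esrrg (1381445_at) -0.30 to 0.23, Esrrg (1394577_at) -0.15 to 0.28, Gabpa (1383377_at) -0.25 to 0.14, Nrf1 (1382071_at) -0.056 to 0.10, Ppargc1a (1393743_at) -0.0056 to 0.23, Ppargc1b (1392715_at) -0.32 to 0.29 and Ucp2 (1368669_at) -1.10 to 0.23. Renewed quantile normalisation gave 0.024 for Ppargc1b and 0.0054 for Esrrg (1381445_at) in Western against Control, and 0.050 and 0.060 for Ppargc1a (1393743_at and 1395518_at) in Western plus DHA against Control. Median centring gave 0.00091 for Ppargc1a (1395518_at) there. Cyclic loess, an alternative chosen after seeing the data, gave 0.017 and 0.023 for these Ppargc1a sets and 0.0014 for Ppargc1b in Western against Control. Averaging the probe sets of a gene gave 0.051 for Nrf1 in Western against Control, -0.11 for Ucp3 in Western plus DHA against Control and -0.11 for Nrf1 in Western plus DHA against Western.

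Over all probe sets, the count called for Western plus DHA against Control was 1, against 0 with 1 probe set a gene or with only the 4 arrays compared, 2 with an adjusted p under 0.1 or the mean of a gene's sets, and 0 to 2 on leaving out an array. For Western plus DHA against Western it was 0, against 1 with an adjusted p under 0.1, array weights, an intensity trend, median centring or quantile normalisation. The F test called 1, against 0 with 1 probe set a gene, the mean of a gene's sets or any array left out. The replicate numbers share only a number, since no label ties them to a batch, and deviations of same-numbered arrays correlated at 0.20 (Western plus DHA with Control), -0.23 (Western plus DHA with Western) and -0.21 (Western with Control) over all probe sets. With the replicate number as a block, 0 member probe sets and 1 probe set overall were called for Western plus DHA against Control. On leaving out 1 array, an alternative also chosen after seeing the data, 9 to 11 member probe sets were lower without overlap in Western plus DHA than in Western, against 28.3% to 34.5% of all probe sets, and 1 to 5 were higher, against 30.6% to 41.6%. The 5 came without Western plus DHA 1, and 3 were higher without Western 1. Among named genes of the wider lists, likewise recomputed after seeing the data, 3 changed sign in Western against Control, each without Control 1. Their differences with each array left out ranged over Cox7a1 -0.043 to 0.39, Mapk14 -0.79 to 0.11 and Slc25a42 -0.49 to 0.061.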
